A study of Mus musculus with 12 samples.

Results

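The comparison set RNA from tomato- vascular endothelial cells (VEC) of the mouse thymus against RNA from tomato+ cortical thymic epithelial cells (cTEC), in 3 libraries of each, which are 6 of the 12 libraries of the study. Members were taken by their labelled population: every library labelled as tomato- VEC or as tomato+ cTEC entered, and no library was chosen by its values. All cells came from C57BL/6 mice that carry a KitL-tomato reporter, in which red fluorescence stands for expression of the Kit ligand gene, and were sorted from thymic stroma by flow cytometry. Tomato- VEC were gated as Lin-, Dapi-, EpCAM-, CD31+ and tomato-. Tomato+ cTEC were gated as Lin-, Dapi-, EpCAM+, CD31-, UEA1-, Ly51+ and tomato+. Lin- means free of the blood lineage stains, Dapi- means alive, and no other treatment or allele is given in the labels. The other 6 libraries, tomato+ VEC and tomato- medullary epithelium (mTEC), were used only where named. The groups differ in lineage and in reporter status at once, so the part of each in any difference cannot be told apart. The labels do not say that the replicates came from separate mice, so p-values measure the spread between these samples, which may be technical.

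The thymus makes T cells from bone marrow progenitors that arrive in blood. Progenitors leave the circulation through venules near the border of cortex and medulla, where endothelial selectins and integrin ligands slow and hold them. They then move into the cortex, whose epithelium supplies Notch ligands, interleukin 7, chemokines and the proteins that present peptides for selection. Kit ligand, which binds the receptor Kit on early progenitors, is known from both kinds of cell.

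Of 12627 genes tested, 2820 (22.3%) differed between the groups at an adjusted p under 0.05 (edgeR's quasi-likelihood test with Benjamini-Hochberg adjustment). Of these, 1298 (10.3%) were higher in tomato- VEC and 1522 (12.1%) were higher in tomato+ cTEC. On log2(RPKM + 1), which follows library totals without the scaling of the edgeR fit, limma called 1337 and 2390. Without tomato+ cTEC replicate 1 the edgeR fit called 1869 of 13205 genes tested, 879 and 990 in the same order. The larger side turned under a minimum of 5 CPM in 3 libraries, with 1205 and 1167. Genes past the threshold are named as higher or lower below, and a log2 difference is tomato- VEC minus tomato+ cTEC. The shares of 10.3% and 12.1% over all tested genes are the background of each list count below. The 6 libraries did not overlap between the groups in 5362 (42.5%) of the tested genes. The median log2 difference over all tested genes was -0.05, while the median size over the called genes was 4.49, and 1533 of the called genes differed by at least 16-fold. In 832 of the called genes the lower group held at most 3 counts over its 3 libraries, 91 of them higher in tomato- VEC and 741 in tomato+ cTEC. Folds for such genes are given from the counts themselves, as a ratio with its 95% counting interval. Where the lower group held 0 counts, the fold is the least that 3 counts in that group would give. Such intervals and limits cover counting error only. In 1180 genes (9.35%) the 95% interval of the log2 difference lay within -1 to 1, and 708, 650 and 707 had such an interval without tomato+ cTEC replicate 1, 2 and 3 in turn. Levels are in counts scaled per library (CPM) unless RPKM is named, and library totals lay between 9092775 and 10586738 counts. Counts were held by 13406, 14266 and 14022 genes in the tomato- VEC libraries and by 15605, 15086 and 15379 in the tomato+ cTEC libraries. Rank correlations between replicates were 0.81 to 0.841 in tomato- VEC and 0.898 to 0.905 in tomato+ cTEC. A gene with 0 counts may thus be missed rather than absent, and the part of detection in such genes was not tested.

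**Figure D1:**
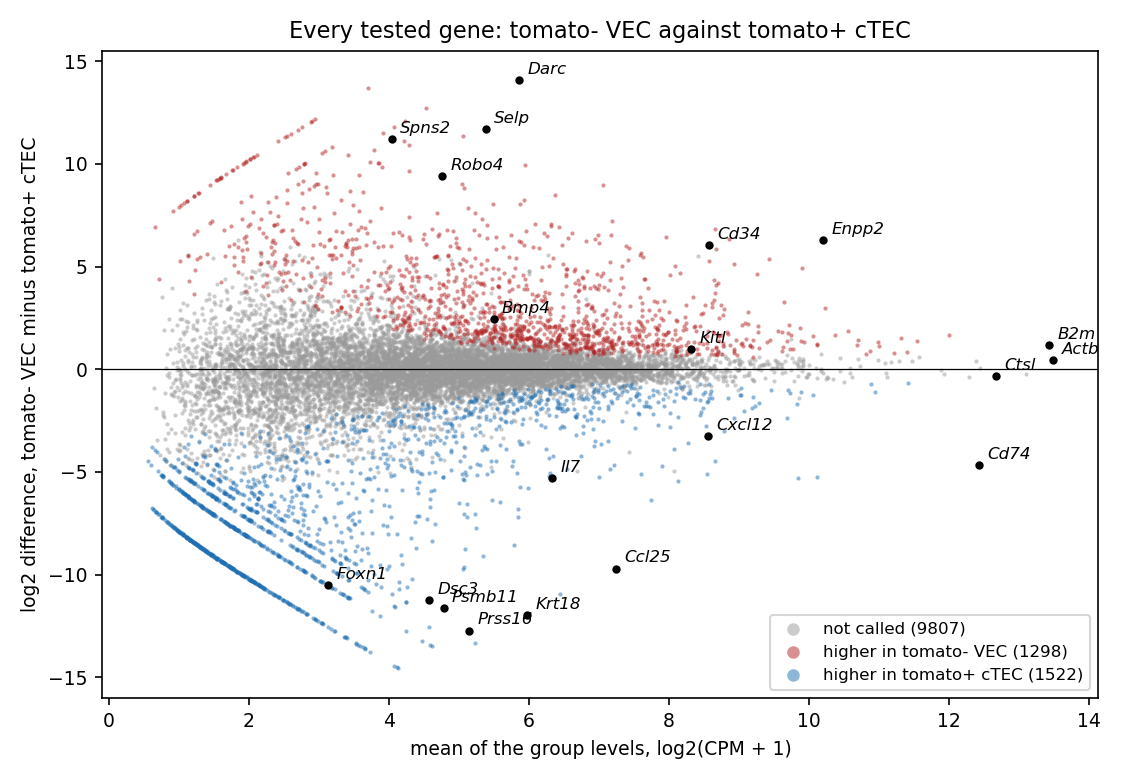
Log2 difference of each tested gene (vertical axis, tomato- VEC minus tomato+ cTEC) against the mean of the group levels as log2(CPM + 1) (horizontal axis), with the 1298 and 1522 called genes in colour and selected genes named. The called genes have a median size of 4.49 on the log2 scale, and 2717 of the 2820 have a size of at least 1.

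Marker genes matched the labels in all 6 libraries, with differences of degree between libraries. The summed level of the endothelial identity list was 27328, 25909 and 24497 CPM in tomato- VEC and 105, 1029 and 41.0 CPM in tomato+ cTEC, so tomato+ cTEC replicate 2 stood above the other cTEC libraries. Keratins summed to 32.1, 8.73 and 9.04 CPM in tomato- VEC and to 4724, 4324 and 5423 CPM in tomato+ cTEC. Markers of fibroblasts and pericytes summed to 518, 552 and 216 CPM in tomato- VEC and 2707, 2924 and 3289.8 CPM in tomato+ cTEC, where Dcn, a matrix proteoglycan, held 2105, 2000.1 and 1620.5 CPM of that sum. Of 13 tested genes of that list, 4 were higher in tomato+ cTEC and 1 in tomato- VEC. Of 10 tested thymocyte markers, 7 were higher in tomato+ cTEC and 1 in tomato- VEC, and the list summed to 174, 106 and 64.4 CPM and 167, 112 and 143 CPM in tomato- VEC and tomato+ cTEC in turn. In tomato- VEC most of that was Cd247, a T-cell receptor signalling chain, at 141, 103 and 46.9 CPM, while Cd3e, Cd4, Cd8a, Cd28 and Lat held 0 counts. In tomato+ cTEC, Cd3e held 24.2, 4.27 and 11.3 CPM and Cd8a held 7.32, 22.7 and 4.14 CPM. Platelet markers summed to 191, 9.49 and 3.64 CPM in tomato- VEC, most in replicate 1. Markers of macrophages and dendritic cells summed to 182, 200.3 and 44.5 CPM in tomato- VEC. In tomato+ cTEC they summed to 49.4, 31.6 and 208 CPM, most in replicate 3. Among 7 tested genes of that list, 1 was higher in tomato- VEC and 1 in tomato+ cTEC, and 12 were not tested. B-cell markers summed to 93.6, 89.9 and 112 CPM and 23.8, 14.8 and 15.3 CPM in the same order, and in tomato- VEC most of that was Ebf1, a factor of B cells and other lineages, at 93.1, 89.6 and 112 CPM, while Pax5 held 0 counts in all 6 libraries. Markers of medullary epithelium summed to 518, 518 and 193 CPM in tomato- VEC and 1442, 832 and 1187 CPM in tomato+ cTEC. Among 10 tested medullary markers, 5 were higher in tomato+ cTEC and 2 in tomato- VEC. Aire, which marks mature medullary epithelium, had 1 count in tomato- VEC and 3 counts in tomato+ cTEC. In bulk samples, fewer cells of a type and less RNA per cell cannot be told apart. The part of these other cells in the results that follow was not tested.

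**Figure D2:**
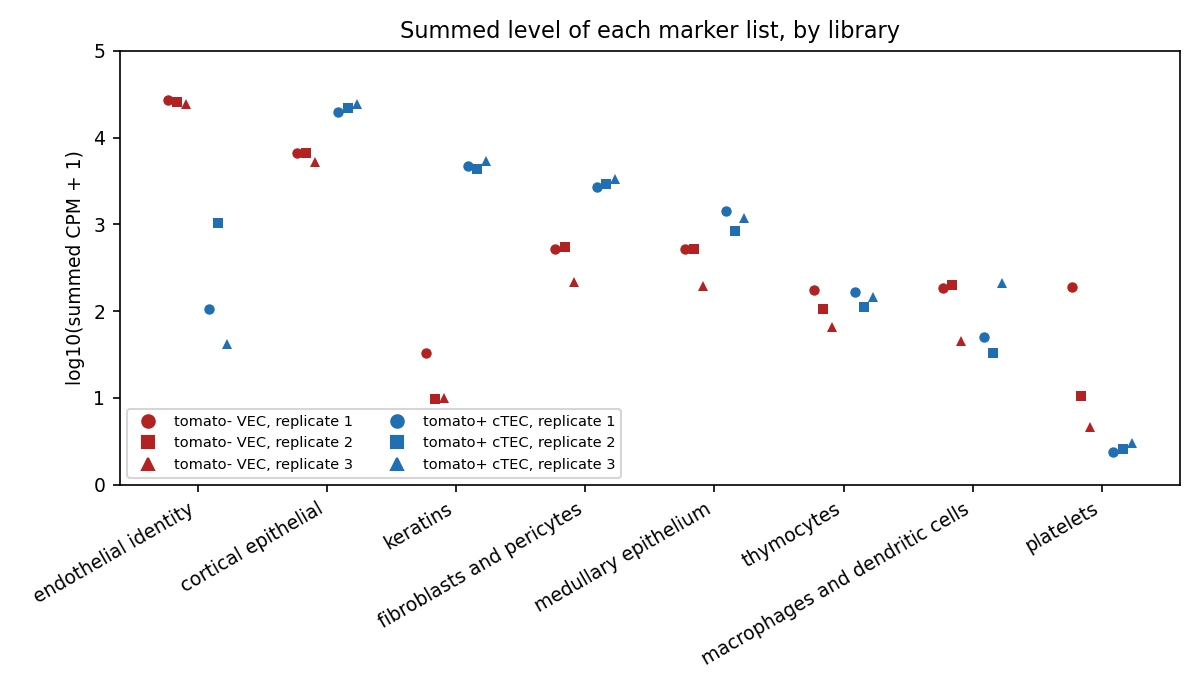
Summed level of each marker list in each library, as log10(summed CPM + 1), with colour for the population and symbol shape for the replicate. Endothelial markers reached 1029 CPM in tomato+ cTEC replicate 2, and fibroblast markers were at or above 2707 CPM in every tomato+ cTEC library.

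Kitl RNA, which encodes Kit ligand, was present on both sides and higher in the endothelium that the reporter left unlabelled. Tomato- VEC held 392, 479 and 471 CPM and tomato+ cTEC held 187, 237 and 259.8 CPM. The lowest tomato- VEC library stood above the highest tomato+ cTEC library. Per length and library total, the levels were 76.0 ± 8.78 RPKM in tomato- VEC and 45.1 ± 6.75 RPKM in tomato+ cTEC (SD, n = 3). With these 6 libraries the log2 difference was 0.97 (SE 0.21, adjusted p = 0.0155). An exact two-sided permutation test gave p = 0.1, which is the smallest value that 3 against 3 allow. The call did not hold without tomato+ cTEC replicate 1 (log2 difference 0.85, adjusted p = 0.0572) or with all 12 libraries in the fit (log2 difference 0.98, adjusted p = 0.23).

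The other signals that act on T-cell progenitors divided between the sides. Of 16 tested genes of the list, Kitl among them, 5 were higher in tomato- VEC and 5 in tomato+ cTEC, and the median log2 difference was -0.27. Leave-one-out fits called 2 to 4 higher in tomato- VEC, with 2 without tomato- VEC replicate 2 or without tomato+ cTEC replicate 1. On the endothelial side, Bmp4, a secreted BMP ligand, held 113, 123 and 72.6 CPM against 19.5, 12.9 and 23.9 CPM (log2 difference 2.45, SE 0.38, adjusted p = 0.00409). Every tomato- VEC library was above every tomato+ cTEC library. Tslp, an interleukin 7 related cytokine, held 48.6, 76.6 and 36.1 CPM against 0.469, 6.65 and 3.69 CPM (log2 difference 3.90, SE 0.91, adjusted p = 0.0193). Il15, a cytokine of natural killer and memory T cells, and Dll4, the Notch ligand that commits progenitors to the T lineage, were also higher in tomato- VEC, by 2.54-fold and 2.78-fold. Dll4 held 148, 93.0 and 69.3 CPM against 23.6, 49.0 and 39.2 CPM, without overlap. Leaving out 1 library ended the calls of Tslp (without tomato- VEC replicate 2 or tomato+ cTEC replicate 3, adjusted p up to 0.0712), Il15 (without tomato- VEC replicate 1 or 2 or 3 or tomato+ cTEC replicate 1 or 2, adjusted p up to 0.113) and Dll4 (without tomato- VEC replicate 1 or 2 or tomato+ cTEC replicate 1 or 3, adjusted p up to 0.109), and the fit of all 12 libraries ended all 3. On the epithelial side, Ccl25, the chemokine of the receptor Ccr9, held 3212, 4502 and 4334 CPM against 0.222, 11.0 and 3.17 CPM (log2 difference -9.70, SE 1.23, adjusted p = 0.00174). Il7, the main survival cytokine of early thymocytes, held 425, 467 and 578 CPM against 22.6, 3.88 and 10.3 CPM (log2 difference -5.32, SE 0.64, adjusted p = 0.00139). Cxcl12, the ligand of Cxcr4, held 1277, 1247 and 967 CPM against 128, 124 and 113 CPM (log2 difference -3.26, SE 0.21, adjusted p = 0.000114). Tomato- VEC libraries lay close together for Cxcl12 and were all far below the epithelium. Wnt4, a Wnt ligand of thymic epithelium, had 4 counts in all of tomato- VEC and 124, 96.3 and 64.6 CPM in tomato+ cTEC (log2 difference -9.20, SE 0.57, adjusted p = 9.44e-05). Tslp stood at a log2 difference of 4.68 when tomato+ cTEC replicate 2 was left out. Il7 stood at a log2 difference of -6.10 when tomato- VEC replicate 1 was left out. Ccl25 stood at a log2 difference of -11.20 when tomato- VEC replicate 2 was left out.

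**Figure D3:**
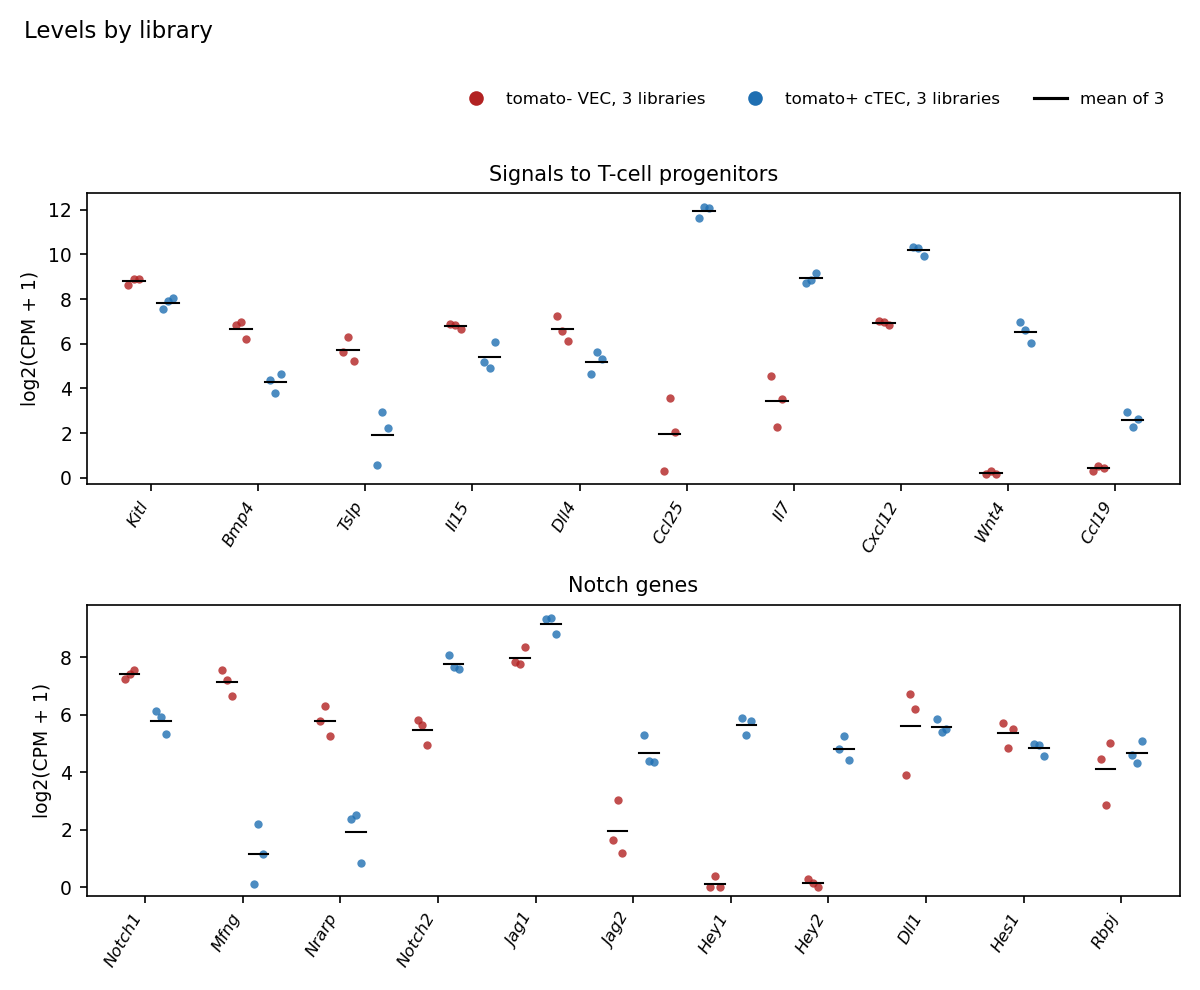
Level of progenitor signals and of Notch pathway genes in each of the 6 libraries, as log2(CPM + 1), with colour for the population and a bar at the mean of 3. Kitl lies close together on both sides, while Ccl25 lies between 3212 and 4502 CPM in tomato+ cTEC and at or below 11.0 CPM in tomato- VEC.

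Cxcl12, Bmp4, Hey1 and Darc also differed between tomato- VEC and tomato+ VEC, in a fit over all 12 libraries whose comparisons share the libraries described here. Cxcl12 held 2035, 1409.7 and 1443 CPM in tomato+ VEC and 16.4, 30.3 and 66.6 CPM in tomato- mTEC. It was thus low in tomato- VEC against tomato+ VEC (log2 difference -3.77, adjusted p = 0.000938) and high in tomato+ cTEC against tomato- mTEC (log2 difference 4.91, adjusted p = 0.000155). Bmp4 held 12.0, 4.96 and 12.6 CPM in tomato+ VEC, below tomato- VEC (log2 difference of tomato- minus tomato+ 3.35, adjusted p = 0.0161), and at most 0.1 CPM in tomato- mTEC. Hey1, a Notch target and arterial gene, held 16.5, 139 and 72.8 CPM in tomato+ VEC against 3 counts in all of tomato- VEC (adjusted p = 0.00166). Darc, described below, held 61.4, 317 and 131 CPM in tomato+ VEC, below tomato- VEC (log2 difference 4.09, adjusted p = 0.0334).

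Notch receptors and targets differed between the sides gene by gene. Of 17 tested genes of the pathway, 4 were higher in tomato- VEC and 5 in tomato+ cTEC, or 3 without tomato+ cTEC replicate 1. The shares over all tested genes were 10.3% and 12.1%. The receptor Notch1 was higher in tomato- VEC, at 149, 168 and 188 CPM against 69.1, 59.5 and 39.3 CPM (log2 difference 1.59, SE 0.28, adjusted p = 0.00726). Notch2 was higher in tomato+ cTEC, at 267, 202 and 192 CPM against 55.7, 49.2 and 29.9 CPM (log2 difference -2.29, SE 0.31, adjusted p = 0.00224). Mfng, a glycosyltransferase that modifies Notch, and Nrarp, a feedback inhibitor, were higher in tomato- VEC by 87.8-fold and 17.3-fold. The targets Hey1 and Hey2 had 3 counts each in tomato- VEC and were higher in tomato+ cTEC, Hey1 at 58.5, 38.7 and 53.6 CPM (451-fold by counts, 95% counting interval 154 to 2191) and Hey2 at 26.7, 37.2 and 20.4 CPM (249-fold by counts, 95% counting interval 84.9 to 1209). Hes1, another target, did not pass the test, at 51.8, 27.5 and 44.0 CPM in tomato- VEC and 30.9, 30.1 and 22.4 CPM in tomato+ cTEC (adjusted p = 0.409). The ligand Jag1 was higher in tomato+ cTEC by 2.28-fold, and leaving out 1 library ended the call of Jag1 (without tomato- VEC replicate 2 or tomato+ cTEC replicate 1, adjusted p up to 0.055). Mfng stood at 208-fold when tomato+ cTEC replicate 2 was left out.

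BMP and TGF-beta genes were called in both directions, and most called Wnt genes were higher in tomato+ cTEC. Of 21 tested BMP and TGF-beta genes, 6 were higher in tomato- VEC, or 3 without tomato+ cTEC replicate 1, and 4 in tomato+ cTEC. Bmp6, a ligand, and Eng, an endothelial co-receptor, were higher in tomato- VEC by 68.0-fold and 133-fold. Bmpr1a, a receptor for BMP4, was higher in tomato+ cTEC, at 297, 158 and 141 CPM against 3.11, 2.91 and 8.10 CPM (log2 difference -5.40, SE 0.57, adjusted p = 0.000771). The ligand Bmp4 was thus higher on the endothelial side and this receptor on the epithelial side. The ligand Bmp7 and the co-receptor Eng were called the other way, and 11 of the 21 genes were not called. Signalling between the sides was not tested. Fst, a secreted inhibitor of activins and BMPs, had 2 counts in tomato- VEC and 137, 66.3 and 52.5 CPM in tomato+ cTEC. Bmp7, another ligand, had 0 counts in tomato- VEC and was higher in tomato+ cTEC (at least 120.0-fold, adjusted p = 0.00584). Of 25 tested Wnt genes, 1 was higher in tomato- VEC and 10 in tomato+ cTEC, with a median log2 difference of -2.84, and leave-one-out fits called 5 to 9 of them higher in tomato+ cTEC, with 6, 5 and 6 without tomato+ cTEC replicate 1, 2 and 3. The lone gene was Tcf7l1, a transcriptional repressor of Wnt targets, 5.57-fold higher in tomato- VEC. Sfrp1, a secreted Wnt antagonist, held 2 counts in tomato- VEC and 118, 56.3 and 60.4 CPM in tomato+ cTEC, and the co-receptor Lrp6 was 3.20-fold higher there. Bmp6 stood at 296-fold and Eng at 806-fold when tomato+ cTEC replicate 2 was left out. Bmpr1a stood at a log2 difference of -6.03 when tomato- VEC replicate 3 was left out.

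Endothelial identity genes were higher in tomato- VEC as a group. Of 24 tested, 21 were higher there and 0 in tomato+ cTEC, with a median log2 difference of 5.98. CD31, encoded by Pecam1, was a sorting marker, so its difference belongs to the gate. Robo4, a receptor that stabilises vessels, held 643, 381 and 309.9 CPM against 0.188, 1.79 and 0 CPM (log2 difference 9.41, SE 1.10, adjusted p = 0.00121). Cd34, a sialomucin of vessels, held 3269, 2861 and 3069 CPM against 49.6, 80.4 and 8.46 CPM (log2 difference 6.05, SE 0.80, adjusted p = 0.00204). In both genes tomato+ cTEC replicate 2 was the highest of the epithelial libraries. Plvap, which forms the diaphragms of endothelial pores, and Rasip1, which vessels need to open a lumen, were higher by 135-fold and 45.6-fold. Without tomato+ cTEC replicate 2 all 24 genes were called higher in tomato- VEC, and in the other leave-one-out fits 9 to 15 were, with 9 to 11 without tomato- VEC replicate 1, 2 or 3 or without tomato+ cTEC replicate 1. Of 24 endothelial transcription factors tested, 12 were higher in tomato- VEC and 2 in tomato+ cTEC. Sox7, Fli1 and Ets1 were higher in tomato- VEC by 922-fold, 70.0-fold and 10.0-fold. Nr2f2, the factor that sets venous identity, held 432, 502 and 559 CPM against 13.04, 31.6 and 5.13 CPM (log2 difference 4.91, SE 0.66, adjusted p = 0.00213). Robo4 stood at 4861-fold by counts (95% counting interval 1345 to 40142), Cd34 at a log2 difference of 6.72, Plvap at 428-fold, Rasip1 at 90.8-fold, Fli1 at 173-fold and Nr2f2 at a log2 difference of 5.78 when tomato+ cTEC replicate 2 was left out. Robo4 stood at a log2 difference of 8.80, Plvap at 89.8-fold and Sox7 at 609.6-fold when tomato+ cTEC replicate 3 was left out.

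Genes of venules, where leukocytes leave the blood, were higher in tomato- VEC. Of 16 tested, 15 were higher in tomato- VEC, and 15 were called in every leave-one-out fit. Darc, the atypical chemokine receptor now named Ackr1, held 3074, 3554 and 2171 CPM in tomato- VEC and 5 counts in all of tomato+ cTEC (log2 difference 14.08, SE 0.43, adjusted p = 9.64e-06). Selp, encoding P-selectin, held 1266, 1013 and 1559.6 CPM against 12 counts (log2 difference 11.70, SE 0.90, adjusted p = 0.0002). Sele, encoding E-selectin, held 150.3, 264 and 579.9 CPM against 5 counts (log2 difference 10.93, SE 0.77, adjusted p = 0.000156). All 3 genes were high in every tomato- VEC library, with Sele lowest in replicate 1 and highest in replicate 3. Lrg1, a secreted glycoprotein of venules, held 779, 1164 and 619.8 CPM against 10 counts (log2 difference 11.36, SE 0.48, adjusted p = 2.15e-05). Selp stood at 13186-fold by counts (95% counting interval 3650.0 to 108880.0) when tomato+ cTEC replicate 3 was left out. Sele stood at a log2 difference of 10.27 when tomato- VEC replicate 3 was left out.

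Of 22 tested genes of lymphocyte homing and entry, 17 were higher in tomato- VEC and 1 in tomato+ cTEC, with a median log2 difference of 3.91. Leave-one-out fits called 11 to 16 higher in tomato- VEC, with 11 without tomato+ cTEC replicate 1. Vcam1, the ligand of the integrin alpha4 beta1, was present on both sides, at 1283, 1147 and 2192 CPM against 442, 439 and 562 CPM (log2 difference 1.68, SE 0.29, adjusted p = 0.0066). Icam1, the ligand of LFA-1, did not pass the test, at 574, 571 and 547 CPM against 445, 416 and 416 CPM (adjusted p = 0.148), and its 95% interval lay within -1 to 1. Enpp2, the secreted enzyme autotaxin that makes lysophosphatidic acid, held 13365, 8787 and 9034 CPM against 24.5, 305 and 69.6 CPM (log2 difference 6.29, SE 0.97, adjusted p = 0.00411). St3gal6 and Chst2, which build selectin ligands, were higher by 3.77-fold and 11.5-fold, and F11r, a junctional adhesion molecule, by 6.48-fold. Alcam, a cell adhesion molecule, was the gene called in the other direction, 55.7-fold higher in tomato+ cTEC, and leaving out 1 library ended the call of Alcam (without tomato+ cTEC replicate 1, adjusted p up to 0.051). Glycam1, a sulphated ligand of L-selectin, held 626, 4.63 and 17.0 CPM in tomato- VEC and 2 counts in tomato+ cTEC (3464-fold by counts, 95% counting interval 958 to 28607, adjusted p = 0.0157). Leaving out 1 library ended the call of Glycam1 (without tomato+ cTEC replicate 1 or 3, adjusted p up to 0.0875). Chst4, a sulphotransferase of high endothelial venules, was not tested for its low counts and held 73.6, 0.108 and 0.235 CPM in tomato- VEC. Fut7, a fucosyltransferase for selectin ligands, held 26.3, 12.0 and 0 CPM and was not tested. Enpp2 stood at a log2 difference of 7.79 when tomato+ cTEC replicate 2 was left out. Chst2 stood at 7.65-fold, Alcam at 596-fold and Glycam1 at 168-fold by counts (95% counting interval 45.9 to 1399.7) when tomato- VEC replicate 1 was left out. Glycam1 stood at 5258-fold by counts (95% counting interval 1455 to 43429) when tomato- VEC replicate 2 was left out.

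**Figure D4:**
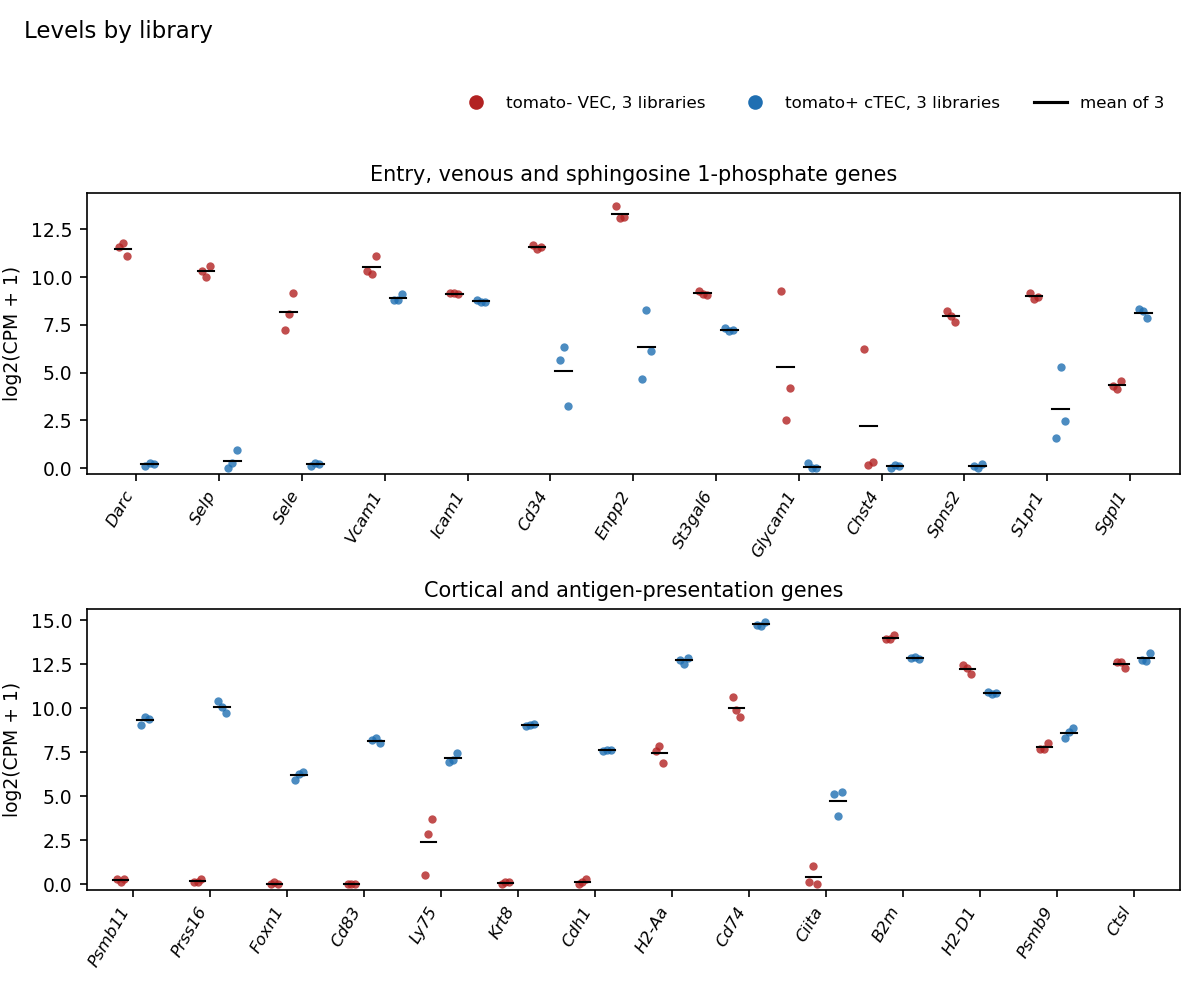
Level of genes of progenitor entry and sphingosine 1-phosphate handling, and of cortical epithelium and antigen presentation, in each of the 6 libraries as log2(CPM + 1), with colour for the population and a bar at the mean of 3. Darc, Selp and Sele are at or above 150 CPM in every tomato- VEC library, and Glycam1 and Chst4 are high in replicate 1.

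Sphingosine 1-phosphate, the lipid that draws mature T cells out of the thymus, is exported, sensed and degraded by different proteins, and these were divided between the sides. Of 12 tested genes, 3 were higher in tomato- VEC and 3 in tomato+ cTEC, beside 10.3% and 12.1% of all tested genes. The exporter Spns2 held 297, 253 and 198 CPM in tomato- VEC and 3 counts in tomato+ cTEC (2658-fold by counts, 95% counting interval 909 to 12892, adjusted p = 5.09e-05). The receptor S1pr1 held 579, 466 and 492 CPM against 1.97, 37.7 and 4.50 CPM (log2 difference 5.12, SE 1.07, adjusted p = 0.0129). The lyase Sgpl1, which destroys the lipid, was higher in tomato+ cTEC, at 316, 298 and 234 CPM against 18.4, 16.7 and 23.02 CPM (log2 difference -3.87, SE 0.26, adjusted p = 0.000139). The receptor S1pr3 was also higher in tomato+ cTEC, at 65.7, 83.8 and 97.4 CPM against 13 counts in tomato- VEC. S1pr1 stood at a log2 difference of 7.30 when tomato+ cTEC replicate 2 was left out.

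Chemokines were called on both sides. Of 19 tested chemokines and atypical receptors, 2 were higher in tomato- VEC and 7 in tomato+ cTEC, with a median log2 difference of -2.32, and leave-one-out fits called 3 to 6 higher in tomato+ cTEC, with 3 without tomato+ cTEC replicate 1 or 3 and 4 without tomato- VEC replicate 2 or 3. The 2 genes were Darc and Cxcl9, an interferon-induced ligand of Cxcr3, which held 556, 747 and 783 CPM against 0.563, 11.7 and 19.3 CPM (log2 difference 6.05, SE 1.05, adjusted p = 0.00665). Ccl7, a monocyte attractant, was 21.8-fold higher in tomato+ cTEC. The atypical receptor Ccrl1, now named Ackr4, held 714, 774 and 812 CPM in tomato+ cTEC against 58.3, 0.216 and 2.47 CPM in tomato- VEC (log2 difference -5.24, SE 1.56, adjusted p = 0.0496). Leaving out 1 library ended the call of Ccrl1 (without tomato- VEC replicate 3 or tomato+ cTEC replicate 1 or 2 or 3, adjusted p up to 0.102). Cxcr7, the atypical receptor of Cxcl12, did not pass the test (adjusted p = 0.509), and its libraries overlapped. Cxcl9 stood at a log2 difference of 6.81 when tomato+ cTEC replicate 3 was left out. Ccl7 stood at 40.6-fold and Ccrl1 at a log2 difference of -9.15 when tomato- VEC replicate 1 was left out. Ccrl1 stood at a log2 difference of -4.64 when tomato- VEC replicate 2 was left out.

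Among genes of other vessel types, most called capillary genes were higher in tomato- VEC, while arterial genes were called evenly on both sides. Of 14 tested capillary and fatty acid uptake genes, 8 were higher in tomato- VEC and 2 in tomato+ cTEC, or 1 without tomato- VEC replicate 2 or tomato+ cTEC replicate 1. The water channel Aqp1 held 1597, 1964 and 1004 CPM against 1.22, 3.17 and 0.180 CPM (log2 difference 9.97, SE 0.95, adjusted p = 0.0005), and the surface carbonic anhydrase Car4 was 305-fold higher. The fatty acid binding protein genes went opposite ways, with Fabp4 30.9-fold higher in tomato- VEC and Fabp5 6.68-fold higher in tomato+ cTEC. Of 11 tested arterial genes, 3 were higher on each side. Of 7 tested lymphatic genes, 4 were higher in tomato- VEC. Stab1 and Lyve1, scavenger and hyaluronan receptors, were higher by 195-fold and 898-fold by counts, 95% counting interval 248 to 7420.5. Pdpn, a lymphatic marker that thymic epithelium also expresses, was 28.5-fold higher in tomato+ cTEC. The lymphatic list, with 4 members not tested, summed to 855, 786 and 785 CPM in tomato- VEC. In tomato+ cTEC it summed to 1217, 1042 and 1234 CPM. Of 17 tested VEGF and angiopoietin genes, 9 were higher in tomato- VEC and 0 in tomato+ cTEC. The VEGF receptors Flt1 and Flt4 and the co-receptor Nrp1 were higher by 57.8-fold, 233-fold and 9.43-fold, and Angpt2, a ligand of Tie2, by 231-fold. The ligand Vegfa did not pass the test, at 10.2, 11.9 and 2.35 CPM in tomato- VEC and 21.0, 15.1 and 18.3 CPM in tomato+ cTEC (adjusted p = 0.346). Of 15 tested genes of blood clotting control, 6 were higher in tomato- VEC and 4 in tomato+ cTEC, or 2 without tomato- VEC replicate 1 or tomato+ cTEC replicate 1 or 2. Tfpi, the inhibitor of the tissue factor pathway, held 216, 239 and 226 CPM against 11.5, 12.7 and 16.7 CPM (log2 difference 4.05, SE 0.26, adjusted p = 0.000114). Tissue factor itself, F3, had 3 counts in tomato- VEC and 197, 111 and 223 CPM in tomato+ cTEC (1599-fold by counts, 95% counting interval 547 to 7755, adjusted p = 4.76e-05). Car4 stood at 512-fold when tomato+ cTEC replicate 1 was left out. Aqp1 stood at a log2 difference of 11.07, Fabp4 at 117-fold, Stab1 at 348-fold, Flt1 at 236-fold and Angpt2 at 490.1-fold when tomato+ cTEC replicate 2 was left out. Flt4 stood at 400.1-fold by counts (95% counting interval 110.5 to 3308) when tomato+ cTEC replicate 3 was left out. Pdpn stood at 52.0-fold and Flt4 at 126-fold when tomato- VEC replicate 3 was left out.

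Some endothelial-side genes named by size lay outside these lists. By the fitted log2 difference, the 12 first called genes among those with at least 5 CPM and no overlap were Darc, Nts, Gpr1, Serpina1e, Bik, Klrb1f, Fgf23, Selp, Nxph1, Glycam1, Clec9a and Lrg1. Where the lower group holds few counts the fitted value depends on the prior count, so no order by fold is read from these names. Nts, the precursor of the peptide neurotensin, held 178, 102 and 230.3 CPM and 0 counts in tomato+ cTEC (at least 1789-fold, adjusted p = 0.000359). Fgf23, a hormone of phosphate balance, held 20.2, 42.1 and 74.1 CPM and 0 counts (at least 477-fold, adjusted p = 0.00235). Gpr1, a receptor of chemerin, held 534, 593 and 380.2 CPM against 2 counts (8049.7-fold by counts, 95% counting interval 2228 to 66475). Bik, a promoter of apoptosis, was at least 587-fold higher and Clec9a, a lectin known from dendritic cells, at least 382-fold. The summed markers of macrophages and dendritic cells in tomato- VEC are given above. Of the 19 genes of that list, 7 held 0 counts there and the others were counted. Ptprc, the pan-leukocyte marker CD45, held 0 counts there. The part of such cells in Clec9a was not tested.

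Cortical epithelial genes were higher in tomato+ cTEC as a group. Of 18 tested, 15 were higher there in the fit of all 6 libraries and in every leave-one-out fit, and 2, Bmp4 and Dll4, were higher in tomato- VEC. The median log2 difference was -9.79, or -10.01 with genes of at most 3 counts in a group at their bound. Psmb11, the thymoproteasome subunit beta5t, held 529.8, 714 and 679 CPM in tomato+ cTEC and 5 counts in tomato- VEC (log2 difference -11.65, SE 0.38, adjusted p = 9.64e-06). Prss16, the thymus-specific serine protease, held 1348, 1092 and 861 CPM and 4 counts (log2 difference -12.73, SE 0.43, adjusted p = 9.64e-06). Foxn1, the transcription factor that thymic epithelium needs, held 59.2, 77.4 and 83.3 CPM and 1 count (1966-fold by counts, 95% counting interval 353 to 77705, adjusted p = 0.000204). These 3 genes were at or near 0 in every endothelial library. Ly75, the endocytic receptor DEC-205, held 121, 134 and 174 CPM against 0.444, 6.36 and 12.3 CPM (log2 difference -4.49, SE 0.94, adjusted p = 0.0129). Ly51, encoded by Enpep, and EpCAM were sorting markers. Of 20 tested transcription factors of thymic epithelium, 16 were higher in tomato+ cTEC and 1 in tomato- VEC. Pax1 and Pax9, factors of the pharyngeal pouch, were higher by at least 1578-fold and at least 689-fold. Trp63, a factor of stratified epithelium, was 113-fold higher. Gata3, a factor of many lineages, was the gene called the other way, 6.93-fold higher in tomato- VEC. Trp63 stood at 1361-fold when tomato- VEC replicate 1 was left out. Ly75 stood at a log2 difference of -5.37 when tomato- VEC replicate 3 was left out.

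The promoters of a gene from each side and of the ligands Kitl and Cxcl12, which differed between the sides by different amounts, are shown to place them beside the levels. The sequences are the 250 bases before the RefSeq start, 5′ to 3′ on the gene's strand, from build GRCm38.p6. Capitals mark GACGC or its reverse complement GCGTC, the core letters recognised by FOXN1. Psmb11 lies at chr14:54625060-54625309 on the plus strand, Tie1 at chr4:118489850-118490099 on the minus strand, Kitl at chr10:100015571-100015820 on the plus strand and Cxcl12 at chr6:117168285-117168534 on the plus strand.
Psmb11: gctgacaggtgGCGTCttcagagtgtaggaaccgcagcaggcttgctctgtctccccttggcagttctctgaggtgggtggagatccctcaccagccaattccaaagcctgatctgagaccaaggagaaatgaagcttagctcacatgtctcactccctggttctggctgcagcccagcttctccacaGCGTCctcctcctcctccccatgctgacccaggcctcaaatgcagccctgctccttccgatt
Tie1: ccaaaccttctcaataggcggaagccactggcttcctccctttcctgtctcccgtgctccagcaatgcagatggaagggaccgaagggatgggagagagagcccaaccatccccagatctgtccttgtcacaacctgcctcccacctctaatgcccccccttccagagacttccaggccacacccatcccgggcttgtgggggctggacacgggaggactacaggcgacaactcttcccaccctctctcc
Kitl: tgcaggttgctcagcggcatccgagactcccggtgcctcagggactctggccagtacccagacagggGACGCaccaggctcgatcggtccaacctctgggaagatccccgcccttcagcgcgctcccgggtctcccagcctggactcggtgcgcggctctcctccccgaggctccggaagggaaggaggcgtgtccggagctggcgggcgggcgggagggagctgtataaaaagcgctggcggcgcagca
Cxcl12: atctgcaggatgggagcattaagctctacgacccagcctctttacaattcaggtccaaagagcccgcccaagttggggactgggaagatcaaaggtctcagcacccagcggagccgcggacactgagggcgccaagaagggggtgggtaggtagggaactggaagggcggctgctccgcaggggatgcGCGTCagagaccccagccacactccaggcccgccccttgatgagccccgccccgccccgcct
Psmb11 held 2 matches, which begin 239 and 62 bases before the start, Kitl held 1 at 183 bases and Cxcl12 1 at 62 bases, and Tie1 held none in this window. Tie1, an orphan receptor of endothelium, was 109.9-fold higher in tomato- VEC. These letters are common. Among the 9993 tested genes with a promoter in the table, 42.4% held a match on either strand. The share was 34.8% of 1160 genes higher in tomato+ cTEC and 36.8% of 1011 genes higher in tomato- VEC. The ETS letters AGGAAGT, searched on both strands, were in 8.44% of all tested promoters, 12.1% of those higher in tomato- VEC and 8.19% of those higher in tomato+ cTEC. A match is a description of the letters and says nothing of binding. Tie1 was at least 2469-fold higher in tomato- VEC when tomato+ cTEC replicate 2 was left out. Tie1 stood at 72.2-fold when tomato+ cTEC replicate 3 was left out.

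Keratins and epithelial junction genes were the other large epithelial groups. Of 13 tested keratins, 10 were higher in tomato+ cTEC and 0 in tomato- VEC. Krt8 held 510.5, 531 and 555 CPM in tomato+ cTEC and 2 counts in tomato- VEC (7138-fold by counts, 95% counting interval 1976 to 58943, adjusted p = 1.51e-05). Krt18, its filament partner, held 2180.4, 2178 and 3097 CPM and 16 counts (log2 difference -11.98, SE 0.47, adjusted p = 1.73e-05). Of 34 tested genes of epithelial junctions and splicing, 23 were higher in tomato+ cTEC and 4 in tomato- VEC, with a median log2 difference of -7.25, or -6.71 with such genes at their bound. The desmosomal cadherins Dsc3 and Dsc2 were higher by 2418-fold and 1682-fold, and Cdh1, E-cadherin, by 1758-fold by counts, 95% counting interval 601 to 8525. F11r, the junction scaffold Tjp1 and the protease inhibitor Spint2 were called the other way, Tjp1 by 5.11-fold and Spint2 by 3.43-fold.

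The 12 genes that the same rule named on the epithelial side, with the same limit on their order, were Isl1, Krt7, Cd83, Pax1, Epb4.1l3, Pla2g7, Wfdc2, Bpifa1, Mgat3, Crip3, Cth and Cbr2. Isl1, a homeobox factor, held 377, 262 and 291 CPM and 0 counts in tomato- VEC (at least 2778-fold, adjusted p = 0.000109). Cd83, a membrane protein that stabilises MHC class II, held 288, 311 and 258 CPM and 0 counts (at least 2543-fold, adjusted p = 8.06e-05). Krt7, a simple epithelial keratin, held 299.8, 322 and 277 CPM and 0 counts (at least 2673-fold, adjusted p = 7.61e-05). Cbr2, a carbonyl reductase, held 1253, 1403 and 1193 CPM and 3 counts in tomato- VEC (11434-fold by counts, 95% counting interval 3912 to 55449). Bpifa1 and Wfdc2, secreted proteins of airway and other mucosal epithelium, held 109, 505 and 1128 CPM and 63.1, 35.9 and 359.8 CPM, and both were highest in replicate 3.

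Antigen presentation genes divided by class. Of 11 tested MHC class II genes, 10 were higher in tomato+ cTEC and 0 in tomato- VEC, with a median log2 difference of -5.11. H2-Aa, the alpha chain of I-A, held 6949, 5959 and 7368 CPM against 189, 235 and 119 CPM (log2 difference -5.22, SE 0.32, adjusted p = 8.41e-05). The invariant chain Cd74 held 27600.3, 25786 and 30222 CPM against 1611, 950.5 and 711 CPM (log2 difference -4.67, SE 0.34, adjusted p = 0.000168). Class II RNA was thus counted in every tomato- VEC library at a lower level. Markers of macrophages and dendritic cells, which also make class II, summed to 182, 200.3 and 44.5 CPM there. Of those 19 markers, 7 held 0 counts in tomato- VEC and the others were counted. Markers of B cells summed to 93.6, 89.9 and 112 CPM there, mostly Ebf1, and Ptprc and Pax5 held 0 counts. The part of such cells was not tested. The class II transactivator Ciita held 34.3, 13.6 and 37.2 CPM against 11 counts in tomato- VEC (log2 difference -6.10, SE 1.35, adjusted p = 0.0156), and leaving out 1 library ended the call of Ciita (without tomato+ cTEC replicate 1 or 3, adjusted p up to 0.0587). Of 25 tested genes of MHC class I and the proteasome, 10 were higher in tomato- VEC and 4 in tomato+ cTEC. Leave-one-out fits called 6 to 9 and 1 to 3, with the 6 without tomato+ cTEC replicate 1 and the 1 without tomato+ cTEC replicate 2 or 3. B2m, the shared class I light chain, held 15784, 15729 and 18198 CPM against 7382, 7599.9 and 7061 CPM (log2 difference 1.17, SE 0.15, adjusted p = 0.00181). H2-D1, a classical heavy chain, was 2.61-fold higher in tomato- VEC, and Nlrc5, the class I transactivator, 3.75-fold. The immunoproteasome subunit Psmb9 was higher in tomato+ cTEC by 1.76-fold, and leaving out 1 library ended the call of Psmb9 (without tomato- VEC replicate 1 or 2 or tomato+ cTEC replicate 2 or 3, adjusted p up to 0.128). Ciita stood at 504-fold by counts (95% counting interval 90.2 to 19927) when tomato- VEC replicate 2 was left out.

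Lysosomal proteases and co-stimulatory genes were called in both directions. Of 18 tested lysosomal genes, 5 were higher in tomato- VEC and 3 in tomato+ cTEC, beside 10.3% and 12.1% of all tested genes. The cathepsins Ctsb, Ctsd, Ctsz and Ctsh were higher in tomato- VEC by 4.49-fold, 6.27-fold, 5.95-fold and 17.8-fold. Ctsl, the cathepsin that trims the class II invariant chain in cortical epithelium, did not pass the test, at 6255, 6237 and 4958 CPM in tomato- VEC and 6728, 6575 and 8907 CPM in tomato+ cTEC (adjusted p = 0.273). Its 95% interval lay within -1 to 1, and limma on log2(RPKM + 1) called it (adjusted p = 0.016). Of 13 tested genes of co-stimulation and co-inhibition, 4 were higher in tomato- VEC and 2 in tomato+ cTEC, or 4 in tomato+ cTEC without tomato- VEC replicate 3. Tnfsf10, the death ligand TRAIL, was 12.5-fold higher in tomato- VEC, and Cd274, the inhibitory ligand PD-L1, was 4.40-fold higher in tomato+ cTEC. Ctsh stood at 32.6-fold when tomato+ cTEC replicate 3 was left out. Ctsh stood at 10.8-fold when tomato- VEC replicate 3 was left out.

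Matrix genes were called on both sides. Of 29 tested, 12 were higher in tomato- VEC and 13 in tomato+ cTEC, and leave-one-out fits called 11 to 13 and 9 to 12. The type IV collagen gene Col4a1 held 1359, 1383 and 1709 CPM in tomato- VEC and 237, 209.9 and 190.5 CPM in tomato+ cTEC (log2 difference 2.80, SE 0.21, adjusted p = 0.000175). Col4a2, the proteoglycan Hspg2, the linker Nid1 and the laminin chain Lamc1 were also higher in tomato- VEC, by 8.65-fold, 11.8-fold, 16.4-fold and 3.93-fold. Tnc, tenascin C, held 1024, 673 and 1006 CPM in tomato+ cTEC and 4.00, 0.216 and 3.05 CPM in tomato- VEC (log2 difference -8.54, SE 0.89, adjusted p = 0.000737). Fn1, Col18a1, the epithelial laminin chain Lamb3 and the proteoglycan Agrn were higher in tomato+ cTEC, by 25.2-fold, 12.8-fold, 128-fold and 3.42-fold. The sum of fibroblast markers was larger in tomato+ cTEC as well, and their part in these matrix genes was not tested. Dcn made most of that sum in tomato+ cTEC replicates 1 and 2 but not in replicate 3. Among 14 tested integrins, 4 were higher on each side, with 2, 1 and 1 higher in tomato- VEC without tomato+ cTEC replicate 1, 2 and 3. Itga5, the fibronectin receptor chain, was 69.1-fold higher in tomato- VEC and Itgav, the vitronectin receptor chain, 7.22-fold higher in tomato+ cTEC. Itgb2, a leukocyte integrin chain, had 0 counts in tomato- VEC and 4.78, 23.6 and 27.8 CPM in tomato+ cTEC, where Ptprc held 1.501, 1.39 and 9.99 CPM. Of 34 tested guidance cues, 9 were higher in tomato- VEC, or 5 without tomato+ cTEC replicate 1 or 3, and 8 in tomato+ cTEC. The integrin and guidance counts stand beside 10.3% of all tested genes higher in tomato- VEC and 12.1% in tomato+ cTEC. Ephb4, a venous receptor of ephrins, was 5.96-fold higher in tomato- VEC and Efna5, an ephrin ligand, 34.1-fold higher in tomato+ cTEC. Fn1 stood at 42.2-fold when tomato- VEC replicate 3 was left out.

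Interferon response, glycolysis and cell cycle genes were called in both directions, and their counts stand beside 10.3% of all tested genes higher in tomato- VEC and 12.1% higher in tomato+ cTEC. Nothing particular to these lists is read from them. Of 33 tested interferon response genes, 5 were higher in tomato- VEC and 7 in tomato+ cTEC. Gbp4, a guanylate binding protein, was 6.14-fold higher in tomato- VEC, and Ifit1 and Ifit3, antiviral proteins, were 5.24-fold and 3.12-fold higher in tomato+ cTEC. Of 19 tested glycolysis genes, 6 were higher in tomato- VEC and 2 in tomato+ cTEC. The glucose transporter Slc2a1 and the kinases Hk1 and Pkm were higher in tomato- VEC by 3.70-fold, 3.53-fold and 2.73-fold. Ldhb, the lactate dehydrogenase B chain, and Hk2 were higher in tomato+ cTEC, by 9.17-fold and 182-fold by counts, 95% counting interval 62.0 to 885. Of 30 tested oxidative phosphorylation genes, 0 were higher in tomato- VEC, 1 was higher in tomato+ cTEC and 17 had an interval within -1 to 1, by the same edgeR test. Over all tested genes, 9.35% had such an interval. The width of an interval depends on the level and spread of a gene, and the list was not set beside genes of like level. Of 27 tested cell cycle genes, 2 were higher in tomato- VEC and 6 in tomato+ cTEC, where Cd3e and Cd8a of thymocytes were also counted, and their part was not tested. The D cyclins were called in opposite directions, with Ccnd1 at 87.2, 155 and 103 CPM in tomato- VEC against 21.4, 20.9 and 12.96 CPM (log2 difference 2.64, SE 0.37, adjusted p = 0.00265) and Ccnd2 at 425, 452 and 494 CPM in tomato+ cTEC against 99.3, 132 and 159.6 CPM (log2 difference -1.81, SE 0.24, adjusted p = 0.00199). Of 24 tested immediate early and dissociation stress genes, 5 were higher in tomato- VEC and 4 in tomato+ cTEC. Leave-one-out fits called 3 to 4 interferon and 3 to 4 glycolysis genes higher in tomato- VEC, and 3 to 8 cell cycle genes higher in tomato+ cTEC, with the 3 without tomato+ cTEC replicate 2 or 3. They called 2 to 5 early and stress genes higher in tomato- VEC. Hsp90aa1, a chaperone, was 3.49-fold higher in tomato+ cTEC, and Ier3, an early response gene, 2.63-fold higher in tomato- VEC. Ldhb stood at 14.0-fold when tomato- VEC replicate 1 was left out.

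**Figure D5:**
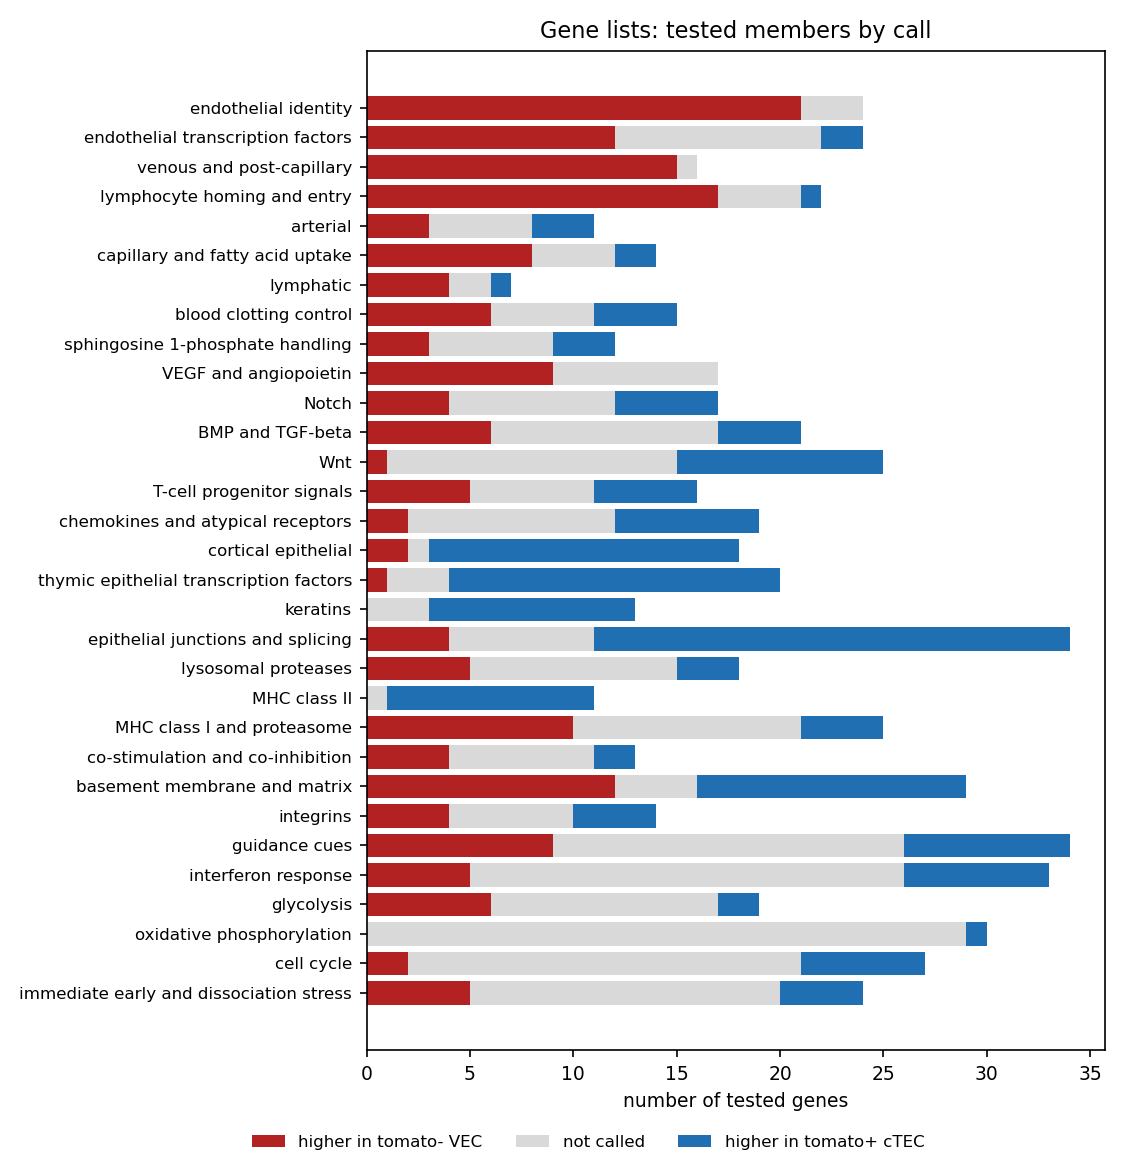
Number of tested genes of each list that were higher in tomato- VEC, higher in tomato+ cTEC or not called. Endothelial identity (21 of 24) and venous genes (15 of 16) were called on the endothelial side, and keratins (10 of 13) and MHC class II (10 of 11) on the epithelial side.

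Some abundant genes differed little between the sides. Among genes with an interval within -1 to 1, those of high deposited RPKM included Actb, Ubb, Eef1a1 and Ctsl. Actb, cytoplasmic actin, was at 6546 ± 648 RPKM in tomato- VEC and 5681 ± 464 RPKM in tomato+ cTEC (SD, n = 3). Ubb, a ubiquitin gene, was at 3493 ± 261 RPKM in tomato- VEC and 5303 ± 492 RPKM in tomato+ cTEC (SD, n = 3). Ifitm3, an interferon-induced membrane protein, was at 5108 ± 224 RPKM in tomato- VEC and 7059 ± 387 RPKM in tomato+ cTEC (SD, n = 3). RPKM follow library totals, without the scaling used in the edgeR test. These genes did not pass the edgeR test of the 6 libraries, which does not show that they were equal. Other tests called some of them. With limma voom the adjusted p was 0.0067 for Actb, 0.018 for Ubb and 0.0279 for Eef1a1. On log2(RPKM + 1), limma gave 0.0036 for Ubb and 0.00442 for Ifitm3. With edgeR, Actb passed with robust dispersions (adjusted p = 0.0456) and without tomato- VEC replicate 3 (adjusted p = 0.0497).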

How the data were processed

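RNA was measured in 12 libraries of sorted thymic stroma, 3 in each of 4 populations, of which 6 made this comparison. Poly(A) RNA was amplified to cDNA with a SMARTer Ultra Low kit and made into Illumina libraries, per the labels' protocols. TopHat2 2.0.10 and build mm9 are listed, per the submitters' processing notes. For the counter, annotation, filters and strand setting, nothing is stated in the labels used here. In the deposited table are the authors' read counts per gene for 23306 symbols and, per the file headers, RPKM for the same genes. Overlapping genes and near-identical copies could not be separated, and 38 tested symbols shared all counts with another.

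Counts were fitted with edgeR 4.0.16 in R 4.3.3 (filterByExpr with a minimum count of 10, TMM scaling, quasi-likelihood test over the 6 libraries, no covariate), with adjusted p-values over all 12627 genes tested. CPM use TMM library sizes. RPKM follow library totals without that scaling, and serve for levels between genes, some levels by group and the limma fit on log2(RPKM + 1). The TMM factors were 0.9159, 0.9231 and 0.9364 in tomato- VEC and 1.092, 1.102 and 1.049 in tomato+ cTEC. A comparison of the groups in RPKM is therefore shifted toward tomato+ cTEC beside the same comparison in CPM. Alternatives used DESeq2 1.42.0, limma 3.58.1, other filters and scaling, all 12 libraries, a replicate block and fits that leave out a library. On simulated counts for this comparison (12627 genes, 12284 fitted, 50 changed per fold size), edgeR recovered 4% of 2-fold, 16% of 4-fold, 50% of 8-fold and 68% of 16-fold changes, with 1.43% false calls. DESeq2 had 37.7% false calls there. The simulation changed far fewer genes than the 22.3% called here, and by at most 16-fold. Its recovered and false shares therefore do not carry over to the calls of this comparison.

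Gene lists and members were chosen with earlier results of these data known. Genes were named as sorting genes and Kitl, as the 12 largest called differences in each direction with at least 5 CPM and no overlap of libraries, as members of the lists, or as the 12 highest in RPKM among genes with an interval within -1 to 1. Leaving out unnamed gene models and receptor segments was part of the rule. Promoters of Kitl and Cxcl12 were added after their values were seen. Prss16 and Cdh5 were to be shown as well and have no entry in the promoter table.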

Additional observations from a re-analysis of the deposited data

How the results depend on the processing

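DESeq2, limma voom, size factors by relative log expression, no filter on low counts, a minimum of 5 CPM in 3 libraries, all 12 libraries in the fit, robust dispersions and a minimum log2 size of 1 called 3676, 3501, 2832, 2689, 2372, 2838, 2801 and 2717 genes, against 2820. The minimum of 5 CPM left 1205 higher in tomato- VEC and 1167 in tomato+ cTEC. On log2(RPKM + 1), limma called 3727, of which 2390 were higher in tomato+ cTEC. Leaving out a library gave 1869 to 2573 called genes, with 879 to 1113 higher in tomato- VEC, 990 to 1460 higher in tomato+ cTEC and 650 to 1028 with an interval within -1 to 1. Such fits have fewer samples. The log2 difference of Kitl was 0.85 to 1.07 over those fits. Its call was lost without tomato+ cTEC replicate 1, with all 12 libraries in the fit (0.98) and under a minimum log2 size of 1 (0.97). Of the 148 called genes named in the text, 135 kept their call in each fit that left out a library, and 0 changed direction in any alternative. With limma on log2(RPKM + 1), Dll4 (adjusted p = 0.0601) and Ptprc (adjusted p = 0.143) also lost their calls. Psmb9 lost its call with no filter on low counts (adjusted p = 0.0693) and under a minimum log2 size of 1 (-0.81). Ccrl1 lost its call with the minimum of 5 CPM (adjusted p = 0.0513) and with robust dispersions (adjusted p = 0.0508). Leaving out 1 library also ended the calls of Pecam1, Cdh5 and Ptprc (adjusted p up to 0.0801, 0.0616 and 0.0655).

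Libraries share replicate numbers across the groups. The correlations of deviations between same-numbered libraries were 0.0132, 0.0283 and 0.0521, and each library correlated best with its own number. These correlations are small and no label ties the numbers, so they do not settle whether the libraries were paired. The fit with the replicate block called 1907 genes, 983 higher in tomato- VEC and 924 higher in tomato+ cTEC, with 916 intervals within -1 to 1. Under that block Ciita, Dll4, Il15, Psmb9, Ptprc, Cd3e and Cd8a were not called (adjusted p = 0.0521, 0.102, 0.0633, 0.0574, 0.0975, 0.052 and 0.0573).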
